A study of Mus musculus with 8 samples.

Results

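Expression of 8 genes of the lysosome was followed in mouse leukemia cells with and without Gata2. They are Atp6v0d2, Atp6v1c1 and Atp6v1f of the vacuolar proton pump, the transcription factor gene Tfec, Rragd and C9orf72 of lysosomal nutrient signalling and endosomal traffic, and Tmem106b and Laptm4b of the lysosomal membrane. The members were chosen by name among rows of a count table of 49585 rows, after their expression in CPM (counts scaled to a common library total) in both genotypes, also compared by replicate number, had been seen. The difference between the genotypes is therefore given as a description with its error, and no p-value is given for a member. All 8 passed the filter on low counts.

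The cells were bone marrow leukemias labelled MA9 (usually short for MLL-AF9, a fusion oncogene), and all were grown with 15% serum, SCF at 20 ng/mL, IL-6 at 10 ng/mL and IL-3. In 1 group both Gata2 alleles were flanked by recombination sites and intact (Gata2 f/f), and in the other Gata2 was lost (Gata2 -/-, labelled Gata2 KO). Each group had 4 libraries, with total counts from 1610369 to 6237748. How the deletion was made, and whether replicates were separate leukemias, animals or cultures, is not given in the sources used here, so errors measure only the spread between these libraries. In bulk RNA, fewer cells of a type and less RNA per cell cannot be told apart.

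Lysosomes are acidified by the vacuolar ATPase, a rotary pump with a cytosolic V1 sector that splits ATP and a membrane V0 sector that carries protons. On the lysosomal surface the Rag GTPases recruit the growth regulator mTORC1 when amino acids are plentiful, and the MiT/TFE transcription factors, to which Tfec belongs, bind E-box sequences of lysosomal genes. Tfec and Atp6v0d2 are known for expression in macrophages and osteoclasts, and GATA2 is a zinc finger factor of blood stem and progenitor cells.

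Many rows of the table do not hold the gene they are named for, which limits which genes can be read. Of 344 genes of housekeeping families (ribosomal proteins and proteasome subunits among them), 233 (67.7%) lay under 1 CPM with the libraries pooled, Actb had 10 counts in all and B2m had 0. The Gata2 row held 2 counts over the 4 Gata2 f/f libraries and 2 over the 4 Gata2 KO libraries, and so does not check the genotype labels. The 8 members lie in 3 stretches where the family genes were all counted at 20 CPM or more (14 of 14), which together hold 977 rows. In GRCm38 these run from 3831334 to 49521093 on chromosome 4, from 11900292 to 30304539 on chromosome 6, and from 31590800 to 38692446 on chromosome 15. Each stretch was set to begin and end at a well counted family gene, and these end genes are among the 14. The count of 14 of 14 was thus in part fixed by that choice and is no independent check of the names. Atp6v1c1 and Atp6v1f are themselves among those 14 genes. The nearest family gene is 9.24 kb from Rragd (Ube2j1), 156 kb from Laptm4b (Rpl30), 0.741 Mb from Atp6v1f (Ube2h) and 1.16 Mb from Tmem106b (Ndufa4). It is 2.14 Mb from C9orf72 (Ube2j1) and 4.93 Mb from Tfec (Ndufa4). Atp6v0d2 is farthest from any, with Rps20 16.04 Mb before it and Ube2j1 13.1 Mb after it, both well counted. Atp6v1c1 is the last gene of its stretch, with Polr2k (25.6 CPM with the libraries pooled) 2.48 Mb before it, and the next family gene beyond it, Eif3e, had 2 counts. The names of these 2 members are therefore the least well bracketed.

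All 8 genes had a higher mean in Gata2 KO, and they fell into a group with a change of several fold and a group with a small one. Atp6v0d2, Rragd and C9orf72, all at low levels in Gata2 f/f, had means 7.56, 3.69 and 3.65 times as high in Gata2 KO. Tfec was 1.47 times as high, and the ratio was 1.23 for Tmem106b and for Atp6v1f, 1.14 for Atp6v1c1 and 1.11 for Laptm4b. In edgeR's quasi-likelihood test with genotype alone, 4 of the 8 (Atp6v0d2, Rragd, C9orf72 and Tfec) were called higher in Gata2 KO at a Benjamini-Hochberg adjusted p under 0.05, and 8.97% of all 6580 rows tested were called higher. The same 4 were the ones whose libraries did not overlap between genotypes, as was the case with higher values in Gata2 KO for 10.8% of rows tested. With the replicate number as a block in the model, 7 were called higher (all but Laptm4b), against 18.8% of rows tested. Because the members were picked on this contrast, these counts describe them and support nothing further. Their median log2 fold change was 0.44, beside -0.01 over all rows tested.

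**Figure D1:**
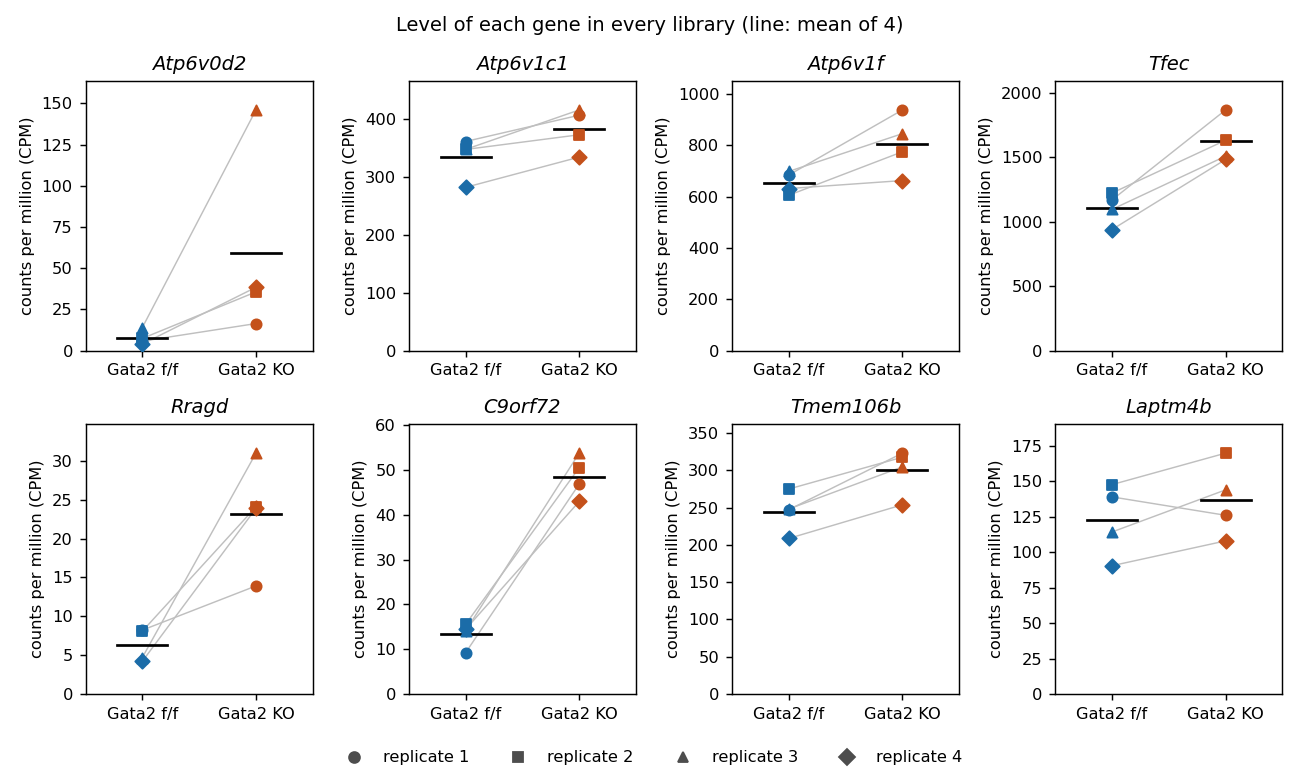
Each panel plots the level of 1 gene in CPM (y axis, from 0) in the 4 Gata2 f/f and 4 Gata2 KO libraries, with a marker for each replicate number, grey lines between libraries of the same number and a black line at the mean. The genotypes do not overlap for Atp6v0d2, Tfec, Rragd and C9orf72, and Atp6v0d2 in Gata2 KO replicate 3 stands at 146 CPM, far above the other libraries.

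Atp6v0d2 (ENSMUSG00000028238.6, chromosome 4 from 19876841 to 19922605 in GRCm38, minus strand) encodes a d subunit of the V0 sector with restricted expression. Its level was 5.80, 7.45, 14.1 and 4.01 CPM in Gata2 f/f replicates 1 to 4 and 16.5, 35.7, 146 and 38.5 CPM in Gata2 KO replicates 1 to 4. Every Gata2 KO library lay above every Gata2 f/f library, but the margin was small, since the lowest Gata2 KO value of 16.5 CPM was near the highest Gata2 f/f value of 14.1 CPM. The means were 7.83 ± 4.38 and 59.2 ± 58.7 CPM (SD, n = 4 each), and the log2 fold change was 3.06 ± 0.66 (SE). The values in Gata2 f/f rest on 12, 12, 30 and 22 counts. Replicate 3 was the highest library in both genotypes, and without Gata2 KO replicate 3 the log2 fold change was 2.04.

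Atp6v1f (ENSMUSG00000004285.12, chromosome 6 from 29467718 to 29470512, plus strand) encodes the F subunit of the central stalk of V1, which every pump contains. It was counted at 684, 605, 698 and 631 CPM in Gata2 f/f and at 937, 774, 845 and 662 CPM in Gata2 KO. Gata2 KO replicate 4 fell inside the Gata2 f/f range, and the other 3 Gata2 KO libraries lay above it. The means were 654 ± 43.7 and 804 ± 116 CPM (SD, n = 4 each), with a log2 fold change of 0.32 ± 0.14 (SE).

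Atp6v1c1 (ENSMUSG00000022295.7, chromosome 15 from 38661933 to 38692446, plus strand) encodes the widely expressed C subunit, which holds V1 and V0 together. Its values were 361, 347, 347 and 282 CPM in Gata2 f/f and 406, 372, 415 and 334 CPM in Gata2 KO. The genotypes overlapped only through Gata2 KO replicate 4, which was lower than 3 of the Gata2 f/f libraries. The means were 334 ± 35.6 and 382 ± 36.9 CPM (SD, n = 4 each), and the log2 fold change was 0.21 ± 0.14 (SE).

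The 3 pump subunits thus differed in size of change and in spread. Relative to the mean, the SD between Gata2 KO libraries was 99.3% for Atp6v0d2, 14.4% for Atp6v1f and 9.67% for Atp6v1c1. Of the 25 pump subunit and assembly genes listed, these 3 are the only ones inside the readable stretches, so the other 22 were not analysed here.

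Tfec (ENSMUSG00000029553.10, chromosome 6 from 16833373 to 16898441, minus strand) was the most abundant of the 8 in CPM. It was counted at 1169, 1223, 1096 and 939.8 CPM in Gata2 f/f and at 1868, 1633, 1509.6 and 1484 CPM in Gata2 KO. The lowest Gata2 KO library stood above the highest Gata2 f/f library by more than the SD of either genotype. The means were 1107 ± 123 and 1624 ± 176 CPM (SD, n = 4 each), and the log2 fold change was 0.57 ± 0.14 (SE). The other 3 genes of the MiT/TFE family, Tfeb, Tfe3 and Mitf, lie outside the readable stretches. The call of Tfec was lost when Gata2 f/f replicate 3 or Gata2 KO replicate 1, 2 or 3 was left out, with log2 fold changes of 0.56, 0.47, 0.56 and 0.60.

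Rragd (ENSMUSG00000028278.14, chromosome 4 from 32983037 to 33022180, plus strand) encodes RagD, 1 of the GTPases that bring mTORC1 to the lysosome, and is known as a target of MiT/TFE factors. Its values were 8.21, 8.07, 4.69 and 4.2 CPM in Gata2 f/f and 13.9, 24.1, 31.0 and 23.9 CPM in Gata2 KO. The genotypes were separate, and Gata2 KO replicate 1 lay nearest to the Gata2 f/f libraries. The means were 6.29 ± 2.15 and 23.2 ± 7.04 CPM (SD, n = 4 each), with a log2 fold change of 1.99 ± 0.31 (SE). The Gata2 f/f values rest on 17, 13, 10 and 23 counts.

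C9orf72 (ENSMUSG00000028300.14, chromosome 4 from 35191285 to 35226175, minus strand) encodes a protein that forms a complex with Smcr8 and Wdr41 and acts in endosomal traffic, autophagy and lysosome function. It was counted at 9.18, 15.5, 14.1 and 14.4 CPM in Gata2 f/f and at 46.8, 50.5, 53.8 and 43.0 CPM in Gata2 KO. The gap between the genotypes was wide compared with the spread within either, and the SD was 9.60% of the mean in Gata2 KO. The means were 13.3 ± 2.81 and 48.5 ± 4.66 CPM (SD, n = 4 each), and the log2 fold change was 1.89 ± 0.18 (SE). A processed pseudogene, Gm12366, lies inside C9orf72 on the same strand and had its own counts, so reads of the 2 may have been split. The Gm12366 row had means of 32.4 ± 3.13 CPM (Gata2 f/f) and 33.9 ± 9.44 CPM (Gata2 KO; SD, n = 4 each; log2 fold change 0.08 ± 0.22).

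Tmem106b (ENSMUSG00000029571.14, chromosome 6 from 13069759 to 13089269, plus strand) encodes a membrane protein of late endosomes and lysosomes. Its values were 247, 275, 248 and 209 CPM in Gata2 f/f and 323, 318, 305 and 254 CPM in Gata2 KO. Only Gata2 KO replicate 4 fell inside the Gata2 f/f range. The means were 245 ± 27.3 and 300.0 ± 31.7 CPM (SD, n = 4 each), and the log2 fold change was 0.31 ± 0.14 (SE).

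Laptm4b (ENSMUSG00000022257.3, chromosome 15 from 34238028 to 34284302, plus strand) encodes a membrane protein of late endosomes and lysosomes that is often raised in cancers. It was counted at 139, 148, 114 and 90.5 CPM in Gata2 f/f and at 126, 170.0, 144 and 108 CPM in Gata2 KO. The genotypes overlapped over most of their range. The means were 123 ± 25.9 and 137 ± 26.4 CPM (SD, n = 4 each), with a log2 fold change of 0.18 ± 0.20 (SE), and Laptm4b was the only member not called with the block.

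Compared within same-numbered libraries, 7 of the 8 genes were higher in Gata2 KO in all 4 pairs, as were 24.2% of rows tested. The within-pair log2 differences ran from 1.56 to 2.26 for C9orf72, from 0.45 to 0.69 for Tfec and from 0.24 to 0.36 for Tmem106b. For Atp6v1c1 they ran from 0.14 to 0.29 and for Atp6v1f from 0.10 to 0.43. Atp6v0d2 and Rragd shared the order of their pairs. Their smallest differences were in pair 1 (1.39 and 0.70), followed by pair 2 (2.20 and 1.54), pair 4 (3.09 and 2.36) and pair 3 (3.36 and 2.61). C9orf72 had its largest difference, 2.26, in pair 1. Laptm4b was lower in Gata2 KO in pair 1 by -0.17 and higher in the other 3 pairs by 0.24, 0.37 and 0.28.

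**Figure D2:**
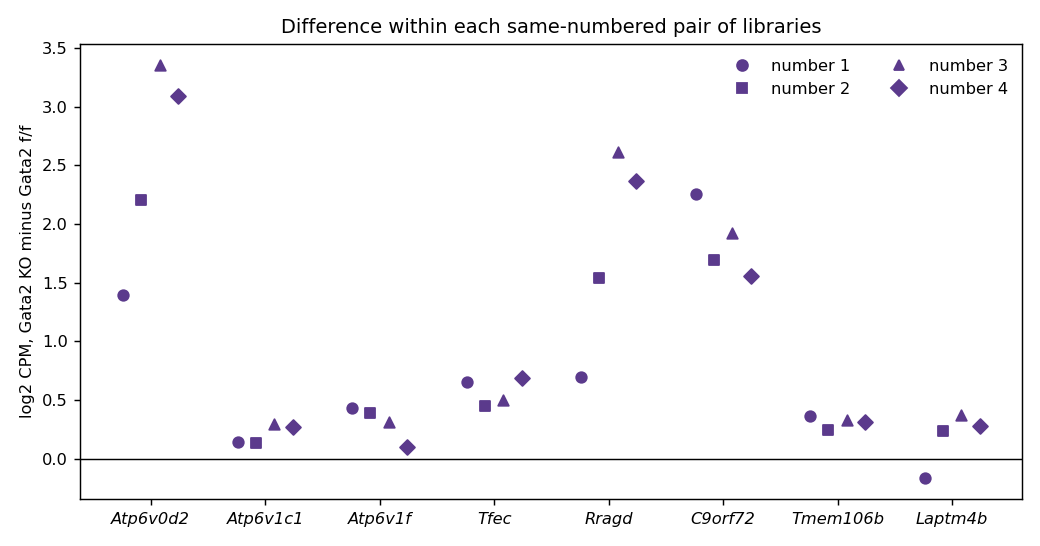
The y axis gives log2 CPM in Gata2 KO minus Gata2 f/f for each of the 4 same-numbered pairs of libraries, with 1 marker shape for each number and a column for each gene. All points lie above 0 except Laptm4b in pair 1, and Atp6v0d2 and Rragd spread over about the same order of pairs.

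The libraries numbered 4 tended to be low for these genes in both genotypes. Gata2 f/f replicate 4 was the lowest library of its genotype for 6 of the 8 genes, and Gata2 KO replicate 4 was the lowest of its genotype for 6. Both held for 4 genes, Atp6v1c1, Tfec, Tmem106b and Laptm4b. The share of all rows tested with the same order was not computed, so these counts do not show a trait particular to the 8 genes. The 2 libraries numbered 4 were also the deepest sequenced, and the part of depth in these levels was not tested. With both left out, 6 members were called higher, Atp6v1f and Tmem106b in addition to the 4 above, against 13.7% of rows tested. Their log2 fold changes were then 0.39 and 0.32.

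Divided by exon length in GENCODE M21, the levels differed widely. In Gata2 f/f, Atp6v1f was highest at 615 ± 41.1 CPM per kb (SD, n = 4), then came Tfec at 198 ± 22, Laptm4b at 63.4 ± 13.3, Atp6v1c1 at 59.7 ± 6.35 and Tmem106b at 35.3 ± 3.94. C9orf72 at 2.89 ± 0.61, Atp6v0d2 at 2.88 ± 1.61 and Rragd at 1.22 ± 0.42 CPM per kb were lowest. Laptm4b and Atp6v1c1 overlapped over the libraries, as did Atp6v0d2 with both C9orf72 and Rragd, and the other neighbours in this order did not overlap. C9orf72 (lowest library 1.99) and Rragd (highest library 1.59 CPM per kb) were separate. In Gata2 KO the order of the first 5 was kept, with Atp6v1f at 757 ± 109 and Tfec at 290.3 ± 31.4 CPM per kb. Atp6v0d2 was then at 21.8 ± 21.6 CPM per kb, with single libraries from 6.07 to 53.8, so that it overlapped both Tmem106b above it and C9orf72 below it. C9orf72 was at 10.5 ± 1.01 and Rragd at 4.49 ± 1.36 CPM per kb. The 3 genes with the largest fold were thus the 3 least abundant per exon length in both genotypes.

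**Figure D3:**
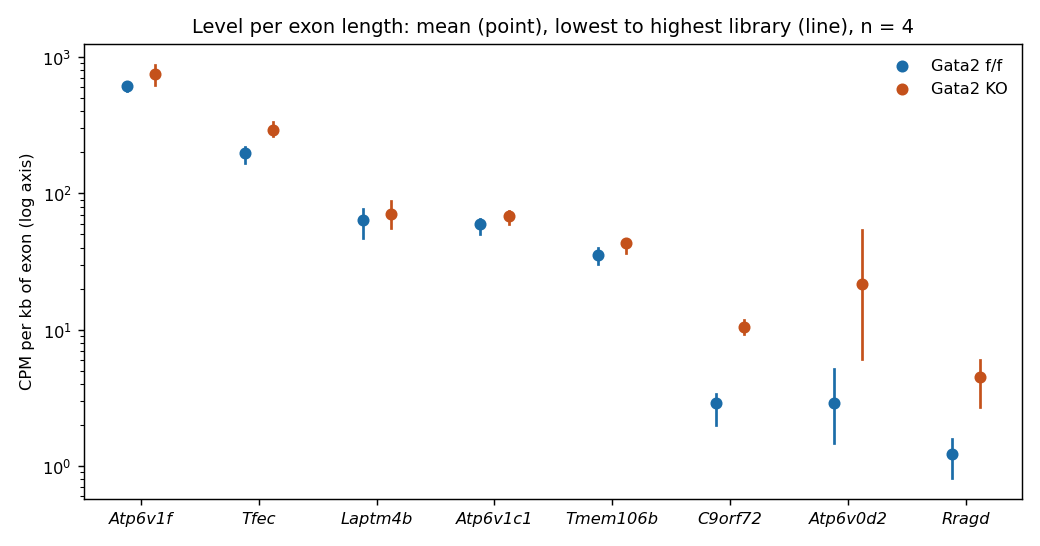
The level of each gene in CPM per kb of exon is plotted on a log axis for Gata2 f/f and Gata2 KO, with points at the mean of 4 libraries and lines from the lowest to the highest library. Atp6v1f and Tfec stand highest in both genotypes, and C9orf72, Atp6v0d2 and Rragd stand lowest.

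The 250 bases before the transcription start were examined for the members with an entry in the RefSeq promoter table (GRCm38.p6), which were 5 of the 8 (Tfec, Rragd, C9orf72, Tmem106b and Atp6v1f). They are shown for the 3 of these that were called with genotype alone, 5′ to 3′ on the strand of the gene, with capitals for any word of the motifs below. The windows are chr6:16898442-16898691 (minus strand) for Tfec, chr4:32982748-32982997 (plus strand) for Rragd and chr4:35225837-35226086 (minus strand) for C9orf72. RefSeq and GENCODE place some starts differently. The C9orf72 window lies inside the gene as given above from GENCODE, the Atp6v1f window runs past the GENCODE start, and the Rragd window ends before it.
Tfec: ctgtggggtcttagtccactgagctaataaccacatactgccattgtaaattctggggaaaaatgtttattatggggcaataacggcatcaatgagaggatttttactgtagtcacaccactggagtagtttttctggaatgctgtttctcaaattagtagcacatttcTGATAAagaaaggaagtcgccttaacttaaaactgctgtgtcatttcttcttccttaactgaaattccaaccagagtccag
Rragd: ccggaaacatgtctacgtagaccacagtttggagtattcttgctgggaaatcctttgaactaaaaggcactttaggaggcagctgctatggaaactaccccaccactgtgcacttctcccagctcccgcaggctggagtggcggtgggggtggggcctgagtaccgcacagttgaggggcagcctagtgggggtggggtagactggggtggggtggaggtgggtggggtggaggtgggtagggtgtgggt
C9orf72: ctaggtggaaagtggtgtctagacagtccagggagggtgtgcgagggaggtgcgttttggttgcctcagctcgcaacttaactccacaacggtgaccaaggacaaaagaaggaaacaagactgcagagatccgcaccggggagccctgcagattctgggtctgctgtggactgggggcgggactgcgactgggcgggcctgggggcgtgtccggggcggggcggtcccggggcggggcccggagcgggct

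Both strands were searched for the E-box CACGTG, the M-box TCATGTG and the GATA words AGATAA and TGATAA and also AGATAG and TGATAG. None of the 5 windows held the E-box, which 6.02% of the 32851 windows in the table held, or the M-box, which 3.25% held. A GATA word was found in 1 of the 5, in Tfec (TGATAA, from 81 to 76 bases before the start), and in 26.5% of all windows. The windows differed in base composition, with 39.2% G or C for Tfec, 49.2% for Tmem106b, 54.4% for Atp6v1f, 59.6% for Rragd and 65.6% for C9orf72, beside a median of 52.4% over all windows. A match to a word describes the letters only.

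Other genes of lysosomes, endosomes, autophagy and the Golgi were taken from a list of 125 genes. Of these, 27 lie in the readable stretches and 19 of the 27 are not members. The stretches hold 16 of the 30 endosome and autophagy genes listed, but 2 of the 30 lysosomal hydrolases and cofactors. The list thus leans towards these stretches, and it was chosen with earlier results of these data known. The counts, medians and p-values below therefore describe these genes and are no independent test. Of the 19 that are not members, 18 passed the filter and 1 was called higher in edgeR with genotype alone. Over all rows tested 8.97% were called higher, so a single call among 18 is near the background. It was Ggh, the gene of the lysosomal enzyme gamma-glutamyl hydrolase that trims folates. Ggh (chromosome 4 from 20042052 to 20066750) lies beside Atp6v0d2 in the same gap between Rps20 and Ube2j1. Its name is therefore about as loosely bracketed as that of Atp6v0d2, and Wwp1 and Pip4p2 lie in this gap too. Ggh rose from 100.4 ± 29.7 CPM in Gata2 f/f libraries to 189 ± 35.7 CPM (SD, n = 4 each). The change was 0.94 ± 0.24 on the log2 scale (SE; adjusted p = 0.0266 in edgeR), with no overlap between genotypes. Its values were higher in Gata2 KO in 4 of 4 pairs. Its call was lost without Gata2 f/f replicate 3 (adjusted p = 0.0838 in edgeR, log2 fold change 0.90) or Gata2 KO replicate 1 (0.064, 0.90), 2 (0.0883, 0.82) or 3 (0.063, 0.94). The median log2 fold change of the 18 genes was 0.23, beside -0.01 over all rows tested.

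With the replicate number as a block, 11 of the 18 passed in edgeR, 10 higher and 1 lower in Gata2 KO, while 16.7% of all rows tested were called lower and 18.8% higher. Beside Ggh the higher ones were Cpq, the gene of a lysosomal carboxypeptidase, and 8 genes of membrane traffic. These were Sdcbp (syntenin, of exosome formation), Arf5 (a Golgi GTPase), Chmp5 and Ubap1 (ESCRT proteins that sort membrane proteins for lysosomal breakdown), Clta (clathrin light chain), Tbc1d2 (a GTPase activator of endosomes), Gcc1 (a Golgi coiled-coil protein) and Vps13b (a lipid transfer protein of the Golgi). Sdcbp had means of 3155 ± 548 CPM (Gata2 f/f) and 4256 ± 837 CPM (Gata2 KO; SD, n = 4 each; log2 fold change 0.44 and adjusted p = 1.66e-05 in edgeR with the block, 0.181 without it). Clta was at 2862 ± 153 and 3391 ± 128 CPM (0.26, adjusted p = 0.00118 in edgeR with the block, 0.189 without it). The lower one was Rab2a, a GTPase of traffic to the Golgi and late endosomes, at 1313 ± 70.1 CPM (Gata2 f/f) and 1103 ± 83.3 CPM (Gata2 KO; log2 fold change -0.23, adjusted p = 0.00913 in edgeR with the block, 0.225 without it). Arf5 lies within Gcc1 on the opposite strand and the library kit does not mark strand, so reads where they overlap cannot be told apart, and the 2 may not count as independent calls. The extent of their exon overlap was not measured.

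Of the same 18 genes, 6 did not overlap between genotypes (Ggh, Cpq, Chmp5, Ubap1, Clta and Arf5), all higher in Gata2 KO, beside 10.8% of all rows tested. The genes that passed neither model were Stx17 (a SNARE of autophagosome fusion, log2 fold change 0.08 ± 0.09), Vcp (an ATPase that extracts proteins for breakdown, -0.04 ± 0.11), Pip4p2 (a lysosomal phosphatase, -0.04 ± 0.12), Wwp1 (a ubiquitin ligase, 0.19 ± 0.13), Gba2 (0.06 ± 0.13), Rgp1 (0.03 ± 0.17) and Wasl (0.01 ± 0.22). Stx17, at 128 ± 7.79 CPM (Gata2 f/f) and 134 ± 4.82 CPM (Gata2 KO), had the smallest SE among the 18. Snx31 was under the filter, with 4 counts or fewer in each library.

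**Figure D4:**
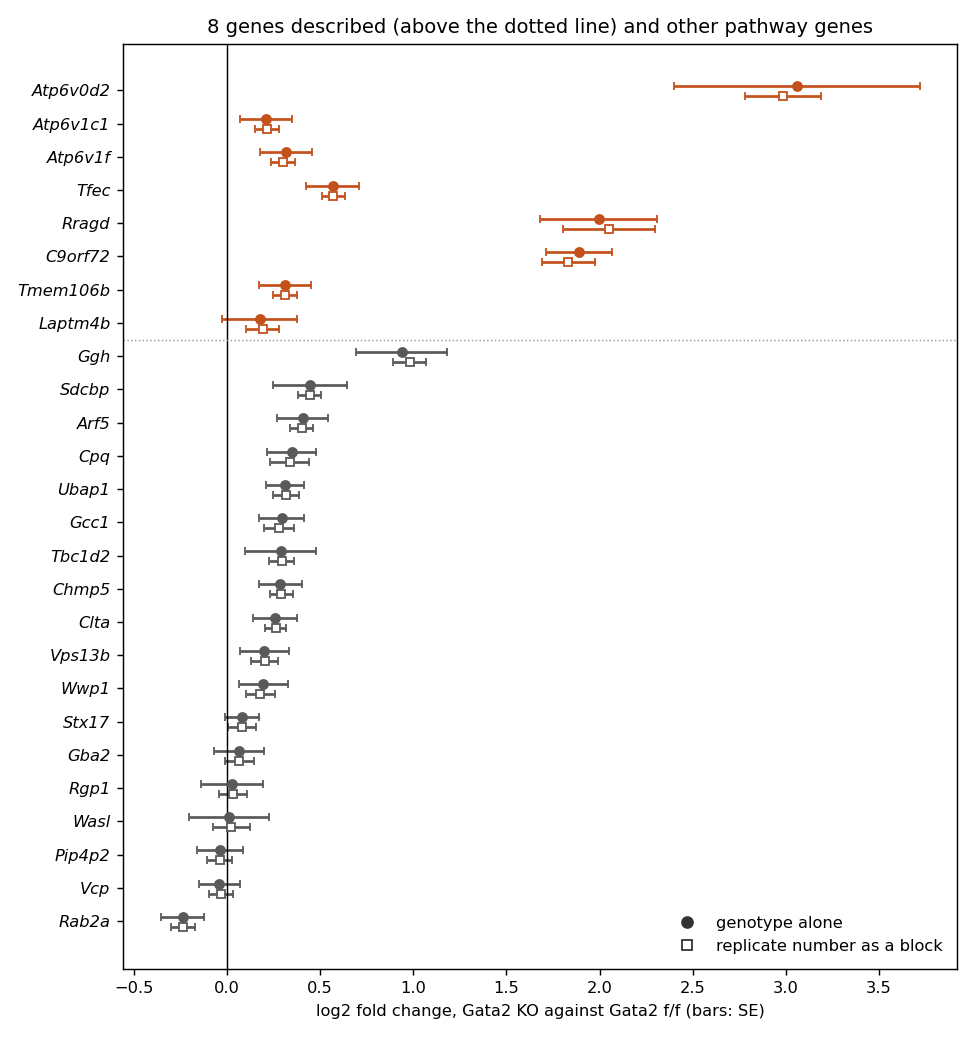
The x axis gives the log2 fold change of Gata2 KO against Gata2 f/f with its SE for the 8 genes described (above the dotted line) and the other 18 pathway genes tested, with filled circles for genotype alone and open squares for the model with the replicate number as a block. Atp6v0d2, Rragd and C9orf72 stand between 1.83 and 3.06, Ggh stands near 0.94, and the rest lie between -0.24 and 0.57.

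For each gene the 2 rows with the most similar profile were sought among 203 others of the readable stretches, by the root mean square difference of log2 CPM over the 8 libraries after centring each row on its mean. This measure takes in the difference between genotypes. Atp6v0d2 and Rragd shared the same nearest rows, Stra6l (0.81 from Atp6v0d2 and 0.44 from Rragd) and Irf5 (0.93 and 0.42), and Atp6v0d2 was not close to any row. C9orf72 was nearest to Trp53inp1 (0.28) and Fam214b (0.33). Tfec was nearest to Tes (0.11), which lies 0.232 Mb away, and to Arf5 (0.13). Atp6v1f was nearest to Arf5 (0.09) and Ube2j1 (0.09), Atp6v1c1 to Ube2j1 (0.06) and Dcaf12 (0.07), Tmem106b to Dpy19l4 (0.06) and Tgfbr1 (0.07), and Laptm4b to Capza2 (0.14) and Zfp706 (0.15). Among the 8 themselves the closest were Atp6v1c1 and Tmem106b at 0.09 and the farthest were Atp6v0d2 and Laptm4b at 1.46.

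Markers of other cell types could be read only in part. Of 43 marker genes listed, 7 lie in the readable stretches. Of the 16 for macrophages and osteoclasts this was Irf5 alone, a transcription factor of inflammatory genes, which rose from a mean of 51.4 ± 10.0 to a mean of 256 ± 33.8 CPM (SD, n = 4 each). Its change was 2.34 ± 0.15 on the log2 scale (SE; adjusted p = 6.5e-06 in edgeR). Irf5 was higher in Gata2 KO in 4 of 4 pairs. Its part in the values of Atp6v0d2, Tfec and Rragd was not tested, and neither was that of macrophage-like cells. The other 6 markers, Pax5 and Cd72 of B cells, Hemgn of erythroid cells, and Cftr, Cav1 and Sdc2 of epithelium and stroma, were under the filter. Summed, they reached 3.10 to 5.80 CPM in Gata2 f/f libraries and 0 to 2.18 CPM in Gata2 KO libraries. Single markers went both ways, at few counts each. Sdc2 had means of 1.74 CPM (Gata2 f/f) and 0 CPM (Gata2 KO), and Cftr, Hemgn and Pax5 were also lower in Gata2 KO. Cd72 (0.68 and 0.76 CPM) and Cav1 (0 and 0.06 CPM) were higher. A count of 0 in a library allows 3 counts, or 0.481 to 1.86 CPM, and covers counting error only.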

How the data were processed

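The authors deposited 1 table of raw whole-number counts, with a row for each Ensembl gene, for 8 libraries of poly(A) RNA read from both ends over 65 bp, as the labels' protocols state. The submitters' processing notes name mm10, kallisto, HTSeq and DESeq2. Neither the step that made the counts nor the annotation is given in the sources used here. Each column was assigned through the sample description it matches. Rows were matched to symbols and GENCODE M21 (GRCm38) by Ensembl identifier without its version, since 88.2% of the deposited versions are those of M21.

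The test was edgeR 4.0.16 under R 4.3.3 (TMM scaling, default filter by group with a minimum count of 10, quasi-likelihood F-test, genotype alone), with p-values adjusted by Benjamini-Hochberg over 6580 rows, and the code was tested on simulated data. Log2 fold changes are positive where Gata2 KO is higher, and their SE was taken as the log2 fold change divided by the square root of F. CPM used library totals, and within-pair differences and profiles used TMM-scaled log2 CPM with a prior count of 2. The members, gene lists, stretches and alternatives (sets of libraries, a replicate block, library totals, no filter, DESeq2 1.42.0) were chosen with earlier results of these data known. Genes named were the 8 members, list genes inside the stretches, the 2 most similar rows of each member, and the flanking family genes.

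The genotypes share replicate numbers 1 to 4 in the titles. Deviations from genotype means correlated across rows at 0.804 for the libraries numbered 4. For those numbered 1, 2 and 3 they correlated at 0.333, 0.213 and 0.243, and for differently numbered libraries at up to 0.182. The margin was therefore wide only for number 4. Same-numbered libraries were treated as pairs, although what a number stands for is not labelled.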

Additional observations from a re-analysis of the deposited data

Results flagged for a closer look

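In each group of 4 libraries the highest and lowest values of the 8 genes and of the 18 other pathway genes were checked for a large gap to the nearest of the others, over 52 groups, of which chance marks about 1 in 20. This marked 8. Atp6v0d2 in Gata2 KO had its highest library, replicate 3, at 146 CPM and the next at 38.5 CPM. In the same library Cpq stood at 61.0 CPM, and the next Gata2 KO library at 51.5 CPM. Rab2a stood at 1226 CPM in Gata2 KO replicate 2, and the next library at 1073 CPM.

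The other 5 concerned libraries numbered 4. In Gata2 f/f replicate 4, Gba2 stood at 144 CPM, Tbc1d2 at 284 CPM and Wasl at 69.9 CPM, each above the other 3 libraries, and Sdcbp stood at 2342 CPM, below them. In Gata2 KO replicate 4, Wasl stood at 71.2 CPM, and the next library at 41.9 CPM. Wasl was thus set apart in the same-numbered library of both genotypes, at about the same level.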

How the results depend on the processing

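All 8 members kept a positive log2 fold change in each of the 14 alternatives, and Atp6v0d2 (2.04 to 3.52), Rragd (1.74 to 2.20) and C9orf72 (1.78 to 2.01) were called in all of them. Laptm4b, from 0.01 to 0.31, was called in none. The number of members called was 7 with the replicate block, and 3 to 5 when 1 library was left out, with Tfec the call that was lost and Atp6v1f (0.43) the one gained, without Gata2 KO replicate 4. Over all rows tested, 822 were called, 590 of them higher, against 2339 with the replicate block, 1437 without both libraries numbered 4, 1727 with both changes, and 548 to 1103 with 1 library left out. With library totals 546 of 838 were higher and with no filter 698 of 880. Of the 18 other pathway genes, 11 were called with the replicate block, 2 with library totals, 3 of 19 with no filter, 8 without both libraries numbered 4 and 11 with the block and without them, and 0 to 3 with 1 library left out. At 0 the call lost in edgeR was that of Ggh, 4 to 6 genes were under an unadjusted p of 0.05, DESeq2 on all 8 libraries called 1, and the cause was not tested. Signs changed only for genes near 0. Wasl was at -0.0058 with library totals and -0.013 with DESeq2, and with 1 library left out it ran from -0.22 to 0.23, Rgp1 from -0.074 to 0.21, Gba2 from -0.051 to 0.15, Pip4p2 from -0.14 to 0.011 and Vcp from -0.10 to 0.034. Depth limits Rragd and Atp6v0d2 most, with 10 to 30 counts in each Gata2 f/f library.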
